A study of Danio rerio with 5 samples.

Results

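Among single cells sorted as runx1+23:mCherry positive from zebrafish embryos at 3 days post-fertilization (dpf), 105 of 933 kept wells carried transcripts of blood stem, progenitor and early lymphoid genes and little globin. These wells were chosen by their readout: a well had to hold at least 1000 estimated transcripts, less than 10% of them from globin genes, and at least 2 transcripts summed over MYB, gata2b, ikzf1, il7r and CCR9. They are called member wells here. The levels of these 5 genes and of globin in them are therefore a description and carry no test. The other 828 kept wells fell into 258 other globin-low wells and 570 globin-high wells.

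Cells from embryos injected with a standard control morpholino (std) or with a morpholino against irf8, a transcription factor that embryonic macrophages need to form, were sorted onto the same 5 plates of 384 wells, 1920 wells in all. On every plate wells 1 to 188 held std cells and wells 189 to 384 irf8 cells, so that position and morpholino cannot be told apart. The mCherry transgene, driven by the runx1+23 enhancer, was carried by the embryos of both groups and set the gate. The plate was taken as the replicate, since wells of 1 plate share a library, and the sources used here do not say if each plate had its own clutch or sort. The p-values measure the spread between these plates, which may be technical.

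Blood stem and progenitor cells of the zebrafish embryo lodge in a vascular niche of the tail, divide there, and later seed the thymus and the kidney marrow. MYB is a transcription factor that definitive blood progenitors depend on, and gata2b is a zebrafish GATA factor of the hemogenic endothelium and of early progenitors. Ikaros, encoded by ikzf1, is a zinc finger protein needed for lymphoid development. The receptors encoded by il7r and CCR9 serve survival of lymphocyte precursors and homing to the thymus.

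The member wells were deeper than the rest. Their median was 11851 UMIs (unique molecular identifiers, counts of single captured transcripts), with a range of 1992 to 261288, against 5237 in the other globin-low wells and 4847.5 in the globin-high wells. When every well was thinned to 1000 UMIs, the median well held 519 genes among the members, 543.5 among other globin-low wells and 295.5 among globin-high wells. Globin took a median of 48.9% of the UMIs of globin-high wells and 0.560% of those of member wells. Less of a globin-high well is left for other genes, which lowers their levels and detection there. A deeper well passes a fixed minimum of transcripts more readily, and the part of depth in membership was not tested. Just inside the minimum were 19 member wells with exactly 2 UMIs on the 5 genes, and just outside it were 29 globin-low wells with 1. The globin limit was not crowded: the nearest wells with 2 UMIs on the 5 genes had 6.91% globin inside it and 11.9% outside.

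The 5 plates did not contribute alike. Plates 1, 2 and 4 gave 37, 36 and 25 member wells, and plates 3 and 5 gave 4 and 3. On plate 3 none of the 80 kept wells was globin-high, and on plate 5 only 2 were, whereas plates 1, 2 and 4 held 185, 176 and 207. The 7 member wells of plates 3 and 5 went against the label in several markers. They had no UMI of CCR9 or ikzf1, and 1 of the 7 reached the white blood cell level defined below. Their median depth was 58513 UMIs, and lens and epidermis genes took a median of 0.349% of their UMIs against 0.061% over all member wells. One of them, a std well of plate 3 with 261288 UMIs, made up 87.3% of the UMIs of that plate's std member wells. Tests across genes used plates 1, 2 and 4, which alone had at least 5 member wells.

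IRF8, the gene targeted by the morpholino, had 0 UMIs in the 105 member wells, which allows up to 2.86% of wells with a UMI, counting error only. It was seen in 5 other globin-low and 5 globin-high wells. The macrophage list was close to 0 in the member wells, at 0.004% to 0.010% of the UMIs summed per plate, with 10 of its 17 genes seen in any member well. IRF8, c1qb, marco and some copies of MPEG1 and MFAP4 were at 0. C1qb and marco were scarce elsewhere too, with a UMI in 1 and 2 other globin-low wells and in 0 globin-high wells. Their absence is therefore not particular to the member wells. Cd68, a lysosomal protein, went the other way, with a UMI in 29 of 105 member wells at 38.1 CPM, against 23 of 258 other globin-low wells at 19.4 CPM and 25 of 570 globin-high wells at 12.3 CPM. C1qa was found in 7 member wells and 7 other globin-low wells.

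MYB was the most frequent of the 5 genes. It had a UMI in 78 of 105 member wells (74.3%) against 13 of 570 globin-high wells (2.28%), and the highest well held 30. Ikzf1 was found in 50 member wells (47.6%), but also in 53 globin-high wells (9.30%), where median depth was 4847.5 UMIs. CCR9 was found in 41 member wells (39.0%) and in 4 globin-high wells (0.702%), and the highest member well held 39 UMIs. Gata2b and il7r were rarer, with 13 (12.4%) and 12 (11.4%) member wells against 1 and 3 globin-high wells. Most gata2b wells rested on a single UMI, the median over its wells being 1, while the medians of MYB and CCR9 over their wells were 3.5 and 3.

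The remaining markers, cd83 and RUNX3, were not used to choose the wells. Cd83, a surface protein of activated antigen-presenting cells and lymphocytes, had a UMI in 58 member wells (55.2%), in 16 of 258 other globin-low wells (6.20%) and in 15 of 570 globin-high wells (2.63%). RUNX3, a transcription factor of lymphoid and myeloid cells, had a UMI in 35 member wells (33.3%), in 8 other globin-low wells (3.10%) and in 8 globin-high wells (1.40%). After thinning to 1000 UMIs the shares were 14.3% against 0.388% of other globin-low wells for cd83 and 7.62% against 0% for RUNX3, the last from 0 of 258 wells.

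Most member wells showed 1 or 2 of the 5 genes. A single gene was detected in 38 wells, 2 genes in 51, 3 in 11, 4 in 4 and all 5 in 1. The largest combinations were MYB alone in 28 wells, MYB with ikzf1 in 18, ikzf1 with CCR9 in 15, MYB with CCR9 in 11, and CCR9 alone in 5. Wells with MYB, gata2b and ikzf1 and no CCR9 or il7r numbered 5.

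Most wells with gata2b also had MYB. Over all 363 globin-low wells this held for 12 of the 15 wells with gata2b. Of the 13 member wells with gata2b, 12 also had MYB, 8 had ikzf1 and 4 had CCR9. The rule shapes these member counts, since a well with 1 gata2b UMI needs another gene of the rule to be a member. Gata2b, CCR9 and ikzf1 were found together in 3 wells, and each of these had MYB as well. The well with the most gata2b, a std well of plate 1, held 13 gata2b, 3 MYB and 5 ikzf1 UMIs and no CCR9. In another std well of that plate all 5 genes were present, with 8 MYB, 2 gata2b, 7 ikzf1, 2 il7r and 11 CCR9 UMIs. The single gata2b member well without MYB was 1 of the 7 member wells on plates 3 and 5.

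Co-occurrence was counted over all 363 globin-low wells, members or not, since the rule itself ties the 5 genes together within the members. Ikzf1 and CCR9 were found together in 22 wells, an odds ratio of 7.07, with 4.08, 2.85 and 9.07 on plates 1, 2 and 4. Of the wells with CCR9, 46.8% had ikzf1. Gata2b and ikzf1 shared 8 wells, an odds ratio of 6.97, but the wells came from plates 1 and 4 except for 1, and on plate 2 the ratio was 0.72. Gata2b and CCR9 shared 4 wells, with an odds ratio of 2.58 over all plates and 1.58, 0.83 and 8.14 on plates 1, 2 and 4. These ratios are a description: the points share depth and libraries, the deeper wells show more of every gene, and after thinning gata2b remained in 3 wells, with ikzf1 in none of them. With at least 2 UMIs required of each gene, the ratio for ikzf1 and CCR9 was 4.19 from 6 shared wells. For gata2b it was 7.61 with ikzf1 and 5.66 with CCR9, from 2 shared wells each. Of the 363 wells 229 had no UMI on the 5 genes, so the ratios also depend on the mix of wells counted. Within the member wells, where the rule shapes it, the ratio was 1.49 for ikzf1 and CCR9. For gata2b it was 1.90 with ikzf1 and 0.66 with CCR9 there.

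The wells with most MYB lacked CCR9. None of the 16 member wells with at least 10 MYB UMIs, a limit set after the values were seen, had a CCR9 UMI. In wells with CCR9 the most MYB was 8 UMIs, against 30 in wells without it. In wells with MYB the most CCR9 was 14 UMIs, against 39 in wells without it. Of the 16 member wells with at least 5 CCR9 UMIs, 6 had MYB. Both genes were found together in 20 wells, and a well that lacks one of the genes needs more of another to be a member, which the odds ratio of 0.10 within the members reflects. Over all globin-low wells it was 2.56.

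**Figure D1:**
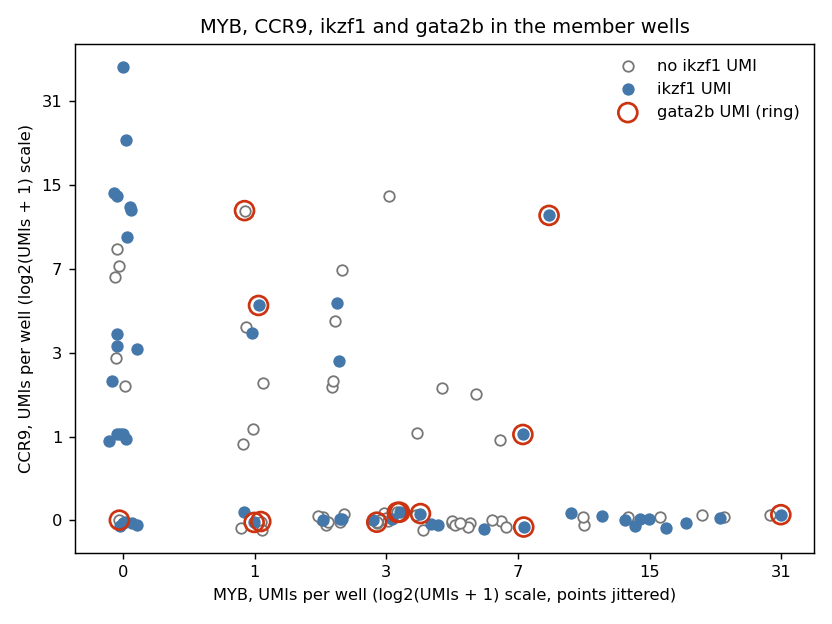
UMIs of MYB (horizontal axis) and CCR9 (vertical axis) in each of the 105 member wells, both on a log2(UMIs + 1) scale with points jittered. Filled points have an ikzf1 UMI and rings mark the 13 wells with gata2b. All wells with 10 or more MYB UMIs lie at 0 CCR9, and 12 of the 13 gata2b wells have MYB, a count that the rule shapes.

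The member wells were not of 1 kind. A list of 23 signalling and cytoskeleton genes of white blood cells took at least 0.1% of the UMIs in 70 member wells, among them 40 of the 41 with CCR9, against 49 of 258 other globin-low wells and 2 of 570 globin-high wells. Near the minimum of the rule the order was not the same: 9 of the 19 member wells with exactly 2 UMIs on the 5 genes (47.4%) and 18 of the 29 globin-low wells with 1 (62.1%) reached it. The limit was set after the values were seen, and 21 member wells lay between 0.05% and 0.15%. Of the 35 member wells under the limit, 20 had at least 0.1% of their UMIs on erythroid genes other than globin, and 11 were among the 16 wells with at least 10 MYB UMIs. Of the 58 member wells with MYB and no CCR9, 27 passed it.

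A further set was made up of 9 wells rich in neutrophil genes, a list in which lyz, npsn and srgn had the highest levels. The neutrophil list took 2.79% to 12.9% of the UMIs in these wells, and at most 0.149% in any other member well. They came from plates 1, 2 and 4 and from both morpholinos, 5 std and 4 irf8. In them 7 wells had ikzf1, 5 MYB, 4 CCR9 and 0 gata2b, mostly at low counts. Another 2 neutrophil-rich wells were not members.

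**Figure D2:**
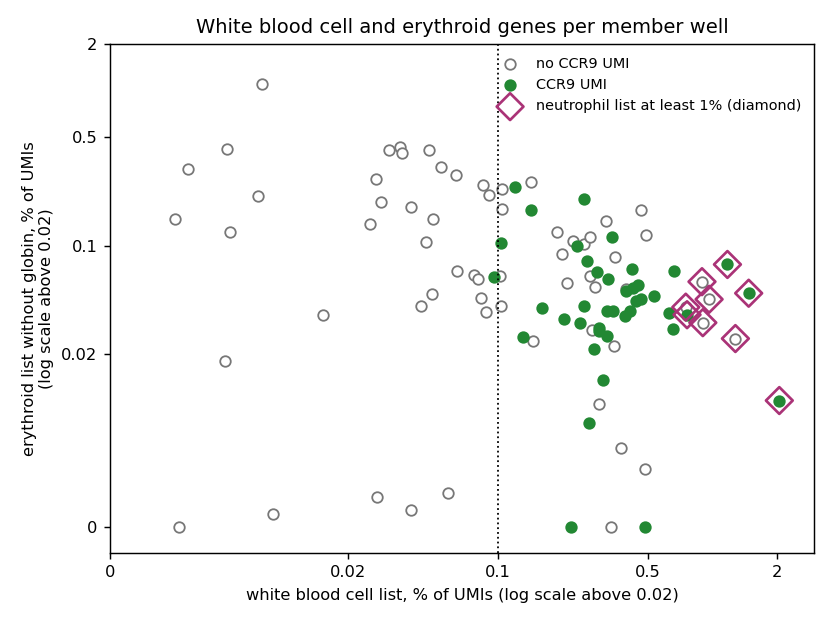
Share of UMIs on the white blood cell list (horizontal axis) and on erythroid genes other than globin (vertical axis) in each member well, in percent, on log scales above 0.02. Filled points have CCR9, diamonds mark the 9 neutrophil-rich wells, and the dotted line is the limit of 0.1%. Wells with CCR9 lie to its right except for 1.

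The wells with at least 10 MYB UMIs had a median depth of 19602.5 UMIs, against 8283 in the 37 wells with CCR9 that were not neutrophil-rich, so that wells with a UMI are not counted at equal depth. The list of erythroid genes other than globin took a median of 0.191% of UMIs in the first (range 0.0244% to 0.417%) and 0.0410% in the second (range 0% to 0.240%), ranges that overlap. Gata1a and klf1, transcription factors of red cells, stood at 154 and 81.6 CPM in the first and at 8.43 and 5.62 CPM in the second, and hemgn at 227 and 39.3 CPM. Alas2, the first enzyme of heme synthesis in red cells, went the other way, with 96.7 against 166 CPM. RHAG, a red cell membrane protein, had a UMI in 15 of these 16 wells, and UROD, an enzyme of heme synthesis, in 14. Znfl2a and hdr were found in all 16. RUNX3 and ccl38.6 were found in none of them. In the 37 wells with CCR9 that were not neutrophil-rich the order was the other way round, with RHAG in 9 wells, UROD in 4, znfl2a in 5 and hdr in 2, RUNX3 in 21 and the chemokine gene ccl38.6 in 16. These values are descriptions of wells grouped by genes of the rule, and the genes named were chosen after their values were seen.

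Gata2b wells held more transcripts of dividing cells, as a description without a test. The G2 and mitosis list took a median of 0.682% of UMIs in the 13 gata2b wells, against 0.170% over all member wells and 0.154% in the 41 CCR9 wells. The S phase list differed little, with medians of 0.197%, 0.173% and 0.159%. Comparing wells with gata2b and no CCR9 (9 wells) with those with CCR9 and no gata2b (37 wells), the medians of the G2 and mitosis list were 0.401% and 0.137%. Only plates 1 and 2 held at least 3 wells of each kind, so this difference was not tested. Median depth was 14763 UMIs in the first and 6830 in the second, and 36 of 37 CCR9 wells passed the white blood cell limit against 5 of 9 gata2b wells.

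Genes of the recombination machinery were scarce. RAG1 had a UMI in 2 of 105 member wells, 1 of 258 other globin-low wells and 1 of 570 globin-high wells. For RAG2 these counts were 7, 4 and 5, and the member wells were the deepest by median. Il7r was found in 12 member wells and in 3 globin-high wells. Among stem and progenitor regulators, hmga1a had a UMI in all 105 member wells at 3493 CPM (counts scaled to the total of the wells summed, the unit of levels used here), SPI1 in 12 and TAL1 in 35. Hmga1a was also found in 227 other globin-low and 354 globin-high wells, at 1923 and 970 CPM, and SPI1 in 7 and 2. TAL1 and LMO2 stood at 104 and 195 CPM in globin-high wells, against 79.6 and 75.8 CPM pooled over all member wells. That pool holds the deep wells of plates 3 and 5. On plates 1, 2 and 4 TAL1 averaged 117 CPM in std member wells and 77.2 CPM in irf8 member wells. These 2 values lie on both sides of the globin-high level. MEIS1 and LDB1 were higher in other globin-low wells, at 95.6 and 57.5 CPM against 59.1 and 51.0 CPM over all member wells.

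To set the member wells against cells that differ from them by more than globin, counts were summed per plate over the 98 member wells and the 142 other globin-low wells of plates 1, 2 and 4. Of 7047 genes tested in edgeR, with plate as a blocking term of the quasi-likelihood fit, 231 (3.28%) were higher in the member wells and 356 (5.05%) were lower at an adjusted p of 0.05. The genes with the largest rise included a chemokine, an adaptor and actin regulators of white blood cells. Among them were also genes of other kinds, such as UROD, KPNA2 and pdia2, and genes without a symbol. Those with the largest fall were genes of skeletal muscle and itga2b (cd41), an integrin gene of thrombocytes. The paper also used a cd41 reporter to follow blood stem and progenitor cells, so in this marker the member wells went against the label. The calls depended on every plate: 13 genes were called without plate 1, 265 without plate 2 and 131 without plate 4, of which 11, 185 and 115 were among the 587 called with all 3. The 28 genes named from this comparison were picked for the same direction on every plate. Each kept its direction without plate 1, and none passed the test there.

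RUNX3 and cd83 were not used by the rule, but both are markers of the label, so their tests are no independent support for it. RUNX3 stood at 112, 78.8 and 20.7 CPM in the member wells of plates 1, 2 and 4 and at 7.16, 4.78 and 0 CPM in the other globin-low wells. The groups did not overlap, though the level on plate 4 was the lowest. Its log2 fold change was 4.07 (standard error, SE, 0.51, edgeR adjusted p = 0.0179). Cd83 stood at 248, 158 and 132 CPM against 20.1, 27.1 and 5.36 CPM, again without overlap. Its log2 fold change was 3.30 (SE 0.44, edgeR adjusted p = 0.0219). For comparison, the rule genes MYB and CCR9 stood at 307 ± 105 and 148 ± 75.1 CPM in the member wells (SD, n = 3 plates).

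The chemokine gene ccl38.6 had 120 UMIs in the member wells, at 87.6, 78.8 and 62.1 CPM, and 0 in the other globin-low wells. Against the floor of 3 counts over the group it was at least 53.5-fold higher (edgeR adjusted p = 0.0248). It was found in 25 of the 105 member wells and in 16 of the 37 CCR9 wells that were not neutrophil-rich. GRAP2, an adaptor of antigen receptor signalling, stood at 52.9, 32.7 and 93.2 CPM against 7.16, 0 and 0 CPM, a ratio of pooled counts of 22.5 (95% exact interval 9.25 to 71.0, counting error only).

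CXCR4, the receptor that holds progenitors in their niche, stood at 108, 186 and 194 CPM in the member wells and at 8.60, 14.3 and 4.02 CPM in the others. The levels of the groups were far apart on every plate. Its log2 fold change was 4.01 (SE 0.43, edgeR adjusted p = 0.0146), and it had a UMI in 58 of 105 member wells and in 11 of the 16 wells with at least 10 MYB UMIs. A second gene listed as CXCR4 was found in 15 member wells. Of the 6 chemokine and cytokine receptors tested outside the rule, CXCR4 was the 1 called.

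The actin regulators LCP1 (L-plastin) and CORO1A (coronin 1A), known from leukocytes, had log2 fold changes of 3.80 and 3.78 (standard errors 0.68 and 0.75, edgeR adjusted p = 0.0363 and 0.0402). Their levels in the member wells were 571 ± 260 and 355 ± 156 CPM against 41.6 ± 36.4 and 26.8 ± 26.1 CPM (SD, n = 3 plates). The 9 neutrophil-rich wells held 389 of the 846 LCP1 UMIs and 297 of the 522 CORO1A UMIs of all member wells, and without these wells 27 of the 28 named genes were tested and each was still called. A high level on every plate was that of si:ch211-214p16.1, with 1189, 841 and 999 CPM in the member wells and 120, 81.2 and 59.0 in the others. It was found in 35 of the 37 CCR9 wells that were not neutrophil-rich, and its log2 fold change was 3.42 (SE 0.26, edgeR adjusted p = 0.00638).

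Other genes with the largest rise were rasal3, a Ras GTPase activator of blood cells, rgs13a, a regulator of G protein signalling, KPNA2, a nuclear import receptor, pdia2, a disulfide isomerase, unc13d, a protein of granule release, and ccdc88b. Also named were znfl2a, UROD, 1 gene under a clone name and 3 genes without a symbol. The log2 fold changes of all these genes ran from 2.79 for unc13d to 3.38 for rasal3. Each was higher on 3 of 3 plates, as its choice required. UROD stood at 97.8, 132 and 248 CPM in the member wells and at 20.1, 17.5 and 18.8 CPM in the others. It was the only gene of the erythroid list that was called among 8 tested, and 170 of its 234 UMIs in member wells lay in the 16 wells with at least 10 MYB UMIs. Globin-high wells had UROD too, at 229 CPM against 112 CPM over all member wells.

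**Figure D3:**
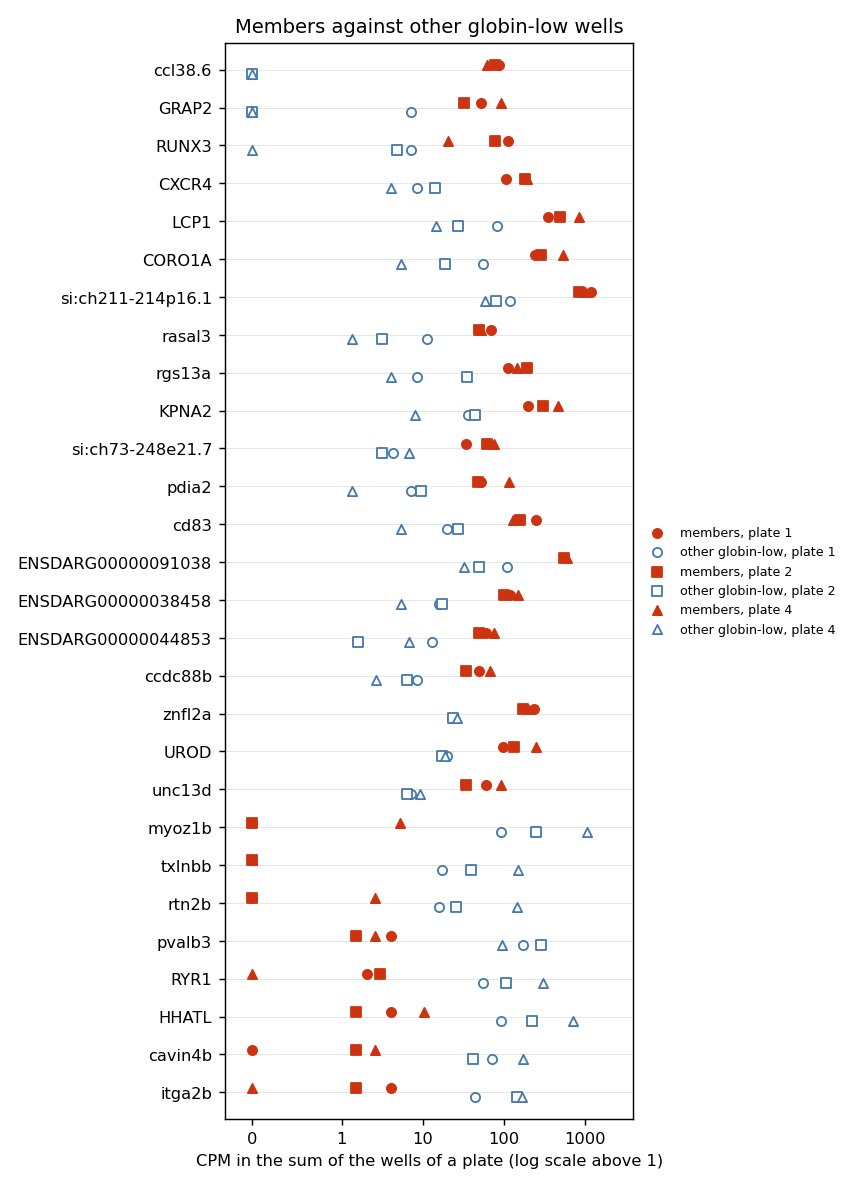
CPM (log scale above 1) of the 20 genes with the largest rise and the 8 with the largest fall in member wells against other globin-low wells, summed per plate. Filled red symbols are member wells and open blue symbols are other globin-low wells of plates 1, 2 and 4. For every gene shown all 3 member values lie on 1 side of the other values. The genes were picked among called genes with the same direction on every plate, so this separation follows in part from the choice.

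Among genes that were lower, myoz1b, a protein of the muscle Z-disc, had 2 UMIs in the member wells and 1025 in the other globin-low wells. Txlnbb had 0 UMIs against 149, at least 37.2-fold lower against the floor of 3 counts over the group. RYR1, the calcium release channel of muscle, had 3 against 334 UMIs, and itga2b 3 against 248. The remaining named falls were rtn2b, pvalb3, HHATL and cavin4b, with 1 to 7 UMIs in the member wells against 137 to 734. In the muscle list 9 of 10 tested genes were lower, with a median on the log2 scale of -3.95 against -0.09 over all genes tested. The muscle list took 1.87% to 7.69% of the UMIs of other globin-low wells per plate and 0.145% to 0.387% in member wells.

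By list, 8 of 17 tested white blood cell genes were higher and 0 lower, the median log2 value being 1.71. Over all genes tested 3.28% were higher. The lists were set with earlier results of these data known, so these counts are no independent support. They also overlap: CORO1A is in the early lymphoid list too, and ptprc among the stem and progenitor regulators. Besides LCP1 and CORO1A they included ptprc, the pan-leukocyte phosphatase CD45, with a log2 fold change of 1.71, and the signalling genes SYK and WAS, with 2.61 and 2.69 (edgeR adjusted p = 0.0363, 0.0279 and 0.0284). In the early lymphoid list the genes called were RUNX3 and CORO1A, 2 of 6 tested outside the rule, and the median was -0.05. A further 11 of its genes were too low to test. Of 10 stem and progenitor regulators tested outside the rule, ptprc alone was called, while hmga1a had a log2 fold change of 0.79 (edgeR adjusted p = 0.0523) and KIT 1.41 (edgeR adjusted p = 0.0771).

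Genes of the cell cycle were higher as far as they were called, where 3.28% of all 7047 genes tested were higher. Member wells were also deeper, at a median of 11851 UMIs against 5237 over all plates, and the part of depth was not tested. In the S phase list 5 of 23 tested genes were higher and 0 lower, the median log2 value being 1.30, and in the G2 and mitosis list 4 of 30 were higher and 0 lower, with a median of 1.48. MCM6, a subunit of the replicative helicase, had a log2 fold change of 1.90, PCNA, the sliding clamp of DNA synthesis, 1.35, the proliferation antigen mki67 1.86 and TOP2A, a topoisomerase of mitosis, 2.08 (edgeR adjusted p = 0.0309, 0.0318, 0.0363 and 0.0472). DNMT3B, a DNA methyltransferase, was the only 1 of 17 chromatin genes called, with 131 against 46.2 CPM and a log2 fold change of 1.38 (edgeR adjusted p = 0.0487). That count is near the share over all genes, and no more is read from it.

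No neutrophil gene was called, though all 6 tested had values above 0, with a median of 2.16 on the log2 scale. Lyz stood at 7126 ± 6218 CPM in member wells against 977 ± 1595 CPM (SD, n = 3 plates), a spread as large as the difference. Of the 12 calreticulin and endoplasmic reticulum chaperone genes 0 were called, and the median was -0.18. CALR stood at 55.2 ± 34.6 CPM in member wells and 98.5 ± 38.8 CPM in the others (SD, n = 3 plates). Of 72 genes tested in the ribosomal protein list, which was matched by symbol, 72 had a value above 0 with a median of 0.57. The 1 gene called was RPL7L1, which is in the list by its symbol alone, and no other gene of the list was called. Of 3 thrombocyte genes tested 2 were lower, and the macrophage list had 1 gene tested and 0 called.

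Against all 710 other kept wells of the same plates, most of them globin-high, 8914 genes were tested, of which 864 (9.69%) were higher in member wells and 732 (8.21%) lower. RUNX3 and cd83, both markers of the label, had log2 fold changes of 3.82 and 3.69 there (edgeR adjusted p = 0.00328 and 0.00425). Of 11 stem and progenitor regulators tested outside the rule, 5 were higher and 1 lower. In the white blood cell list 15 of 18 tested genes were higher, in the S phase list 9 of 25, and among ribosomal proteins 58 of 72, whereas 7 of 9 erythroid genes other than globin were lower. In the G2 and mitosis list 3 of 30 were higher, near the 9.69% of all genes tested, and no more is read from that count. Most of the other wells were globin-high by the rule, and its part in the ribosomal and erythroid counts was not tested. Without plate 1 the test called 0 genes, with 1968 at an unadjusted p below 0.05, and without plate 4 it called 488.

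CCR9 wells were then set against the other member wells, a comparison added after the number of wells with each gene had been seen, since gata2b wells were too few. CCR9 is a gene of the rule, and a well without it could be a member only through MYB, ikzf1, gata2b or il7r. Of the 64 member wells without CCR9, 58 had MYB. What differs between these wells therefore follows in part from how they were chosen, and the values below describe the split and carry no p. On plates 1, 2 and 4 there were 41 wells with CCR9 and 57 without. Of 2907 genes tested, 41 (1.41%) were higher in CCR9 wells and 20 (0.688%) lower. No more is read from these counts. The median CCR9 well had 9351 UMIs and the median of the others on these plates was 12224.

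Some of the named genes higher in CCR9 wells were spread over these wells. The level of si:ch73-308b14.1 was 1474, 1656 and 750 CPM in the CCR9 wells of plates 1, 2 and 4 and 74.5, 71.7 and 95.9 CPM in the other member wells. The values were far apart on each plate. The log2 fold change was 4.02 (SE 0.36), and 4.10 without the neutrophil-rich wells. Ccl38.6 stood at 233, 271 and 214 CPM against 28.6, 6.15 and 19.8 CPM, a log2 fold change of 3.88. Si:ch211-184m19.3 and zgc:195282 had log2 fold changes of 3.40 and 3.16. Cd83 was higher as well, with 361 ± 178 against 113 ± 20.9 CPM (SD, n = 3 plates) and a log2 fold change of 1.65.

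For 5 other named genes most UMIs lay in the 4 CCR9 wells rich in neutrophil genes. The matrix metalloproteinase genes MMP9 and mmp13a had log2 fold changes of 4.30 and 4.30. Of the 244 mmp13a UMIs in CCR9 wells, 242 lay in these 4 wells, as did 103 of the 125 MMP9 UMIs. For cfbl, a complement factor gene, and anpepla, an aminopeptidase gene, all 93 and 41 UMIs lay there, and for tnfb, a tumour necrosis factor gene, 91 of 95. AQP3, a water and glycerol channel, had 32 of its 60 UMIs in these wells and the rest in 3 other CCR9 wells. None of these genes, AQP3 included, was expressed highly enough to be tested once the neutrophil-rich wells had been left out, and 120 genes were then called.

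Genes lower in CCR9 wells were led by RHAG, with 49.4, 27.1 and 35.7 CPM in CCR9 wells and 776, 607 and 678 CPM in the other member wells. Its log2 fold change of -4.14 (SE 0.34) was seen as a lower level on 3 of 3 plates, as the choice of named genes required. UROD followed with 14.1, 16.2 and 23.8 CPM against 132, 176 and 311 CPM (log2 value -3.36). FABP7, a fatty acid binding protein, had a log2 fold change of -4.35, but the groups overlapped: CCR9 wells of plate 1 stood at 70.5 CPM and the other member wells of plate 4 at 26.5 CPM. The other genes with the largest fall were hdr, TCIM, zeb2a, AFF2, EIF4EBP3, HES1, a target of Notch signalling, and NMT1, with log2 fold changes of -3.48 to -2.94.

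The counts by list also follow in part from the split on CCR9, and are given as a description only. Among erythroid genes 2 of 6 were lower in CCR9 wells, the median being -2.05 on the log2 scale. Of the white blood cell genes 3 of 14 were higher with a median of 1.76, and 2 of 6 neutrophil genes were higher, MMP9 and mmp13a. Of 27 G2 and mitosis genes and 14 S phase genes 0 were called, with medians of -0.09 and 0.01. MYB, a gene of the rule, stood at 143 ± 61.7 against 362 ± 119 CPM and ikzf1 at 117 ± 18.4 against 53.1 ± 11.1 CPM (SD, n = 3 plates). When the comparison was kept to member wells past the white blood cell limit, 40 with CCR9 and 29 without, 3 genes were called. RHAG and tnfb remained among them, with log2 fold changes of -4.47 and 3.76, while cd83 had a value of 0.50. All 9 neutrophil-rich wells passed that limit, and most tnfb UMIs of CCR9 wells lay in such wells, as given above. The limit also removes more wells without CCR9. Without plate 1 the count was 11, without plate 4 it was 95, and without the plate as a block it was 26.

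**Figure D4:**
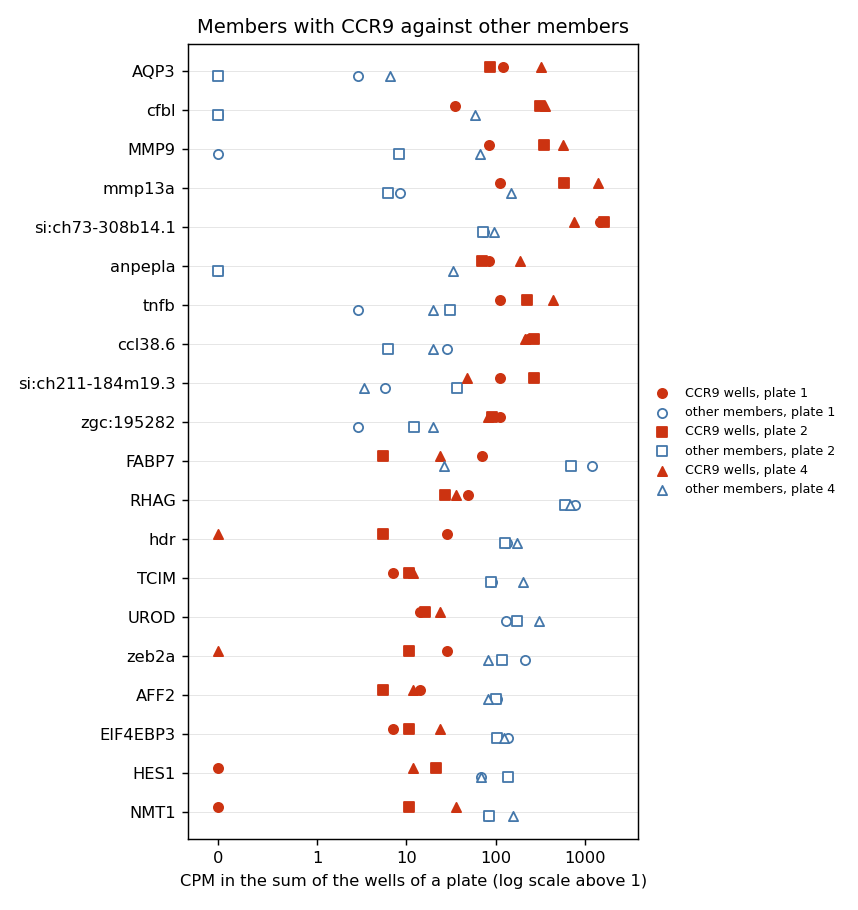
CPM (log scale above 1) of the 10 genes with the largest rise and the 10 with the largest fall in member wells with CCR9 against other member wells, summed per plate. Filled red symbols are CCR9 wells and open blue symbols other member wells of plates 1, 2 and 4. RHAG and UROD are apart on every plate, and FABP7 overlaps between groups. The genes were picked among called genes with the same direction on every plate.

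The study asked what the loss of macrophages does to these cells, and the morpholino was not used to choose the wells. Member wells made up 18.5%, 17.9%, 8.82%, 13.8% and 5.71% of the kept std wells on plates 1 to 5, and 7.20%, 10.6%, 2.17%, 4.90% and 10.0% of the kept irf8 wells. The share was lower with the irf8 morpholino on 4 of 5 plates, and plate 5, with 1 irf8 member among 10 kept wells, went the other way. The means were 12.98% ± 5.62 for std (72 wells) and 6.97% ± 3.52 for irf8 (33 wells; SD, n = 5 plates). The difference of -6.01 percentage points gave p = 0.125 in a two-sided exact sign-flip permutation test, for which 5 plates allow no p below 0.062. With at least 3 transcripts required on the 5 genes it was -7.19 points, lower on 5 of 5 plates, at that smallest p. A lower and a higher minimum of transcripts per well gave -6.50 and -6.86 points (exact p = 0.125 each). The share was lower on 4 of 5 plates in both. With at least 1 transcript on the 5 genes the difference was -3.60 points (exact p = 0.75, lower on 4 of 5). For member wells past the white blood cell limit it was -3.08 (exact p = 0.5, lower on 3 of 5). With every well thinned to 1000 UMIs it was -1.26 (exact p = 0.25, lower on 3 of 5). Thinning left 16 std and 7 irf8 member wells, with mean shares of 2.30% and 1.04%. A difference in points after thinning therefore starts from a smaller share, and its size cannot be set directly against the others.

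Other readings of the share were as follows. As a share of globin-low wells only, member wells were lower with irf8 on 3 of 5 plates, by 9.49 percentage points (exact p = 0.3125), and globin-low wells were themselves fewer among kept irf8 wells on plates 1, 2 and 4. An edgeR test on member wells as counts used kept wells as library size and a dispersion shared over the 3 kinds of kept wells. It gave a log2 fold change of -1.13 with an edgeR adjusted p of 0.00737. The 3 kinds add up to the kept wells, so they are not independent, and the dispersion rests on these 3 alone. This adjusted p is therefore not set above the permutation test. Fewer member cells and less RNA per cell cannot be told apart from counts of wells past a minimum. Median depth in member wells was 10784.5 UMIs for std and 16647 for irf8. Over all kept wells of plates 1, 2 and 4 median depth was 4295, 4250 and 4609.5 UMIs for std. For irf8 it was 6050, 6041 and 7835 UMIs there. On plates 3 and 5 kept irf8 wells were the shallower ones, at 3706 and 4725 UMIs against 5328.5 and 5989.

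**Figure D5:**
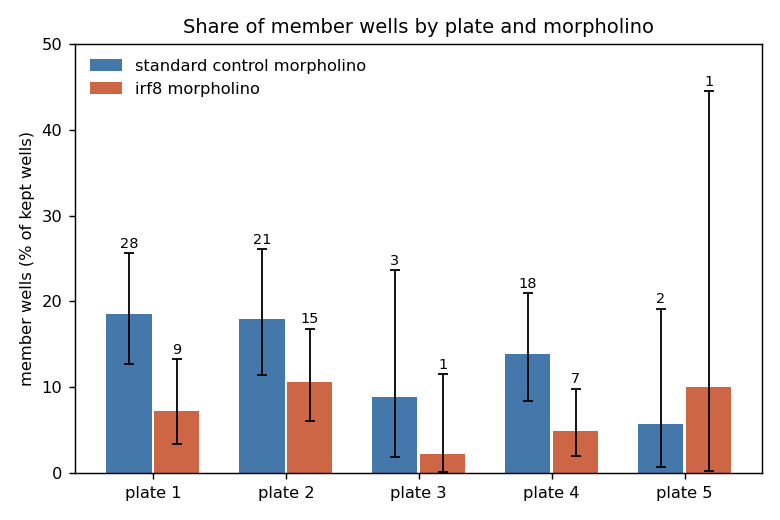
Member wells as a percentage of kept wells by plate for the standard control and irf8 morpholinos. Error bars are 95% exact binomial intervals, which cover counting error only, and the numbers above them are member wells. The share is lower with irf8 on plates 1 to 4, and the irf8 interval of plate 5 runs from 0.253% to 44.5%.

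Within the member wells, 31 irf8 and 67 std wells of plates 1, 2 and 4 were compared for 3015 genes. At an adjusted p of 0.05 edgeR called 0 genes (0%), with 347 at an unadjusted p below 0.05, and DESeq2 called 11. Without plate 4 edgeR called 342 genes, without plate 1 it called 4 and without plate 2 it called 0. The values of the genes with the smallest p are given next, though none of them passed the test.

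ENSDARG00000091038, a gene without a symbol, stood at 258, 349 and 136 CPM in irf8 wells and at 767, 944 and 787 CPM in std wells. The values did not overlap, which follows in part from picking the smallest p. Its log2 fold change was -1.88 (SE 0.29, edgeR adjusted p = 0.114). This gene was also among the largest rises of member wells against other globin-low wells. H1-10, a linker histone, stood at 208, 231 and 235 CPM against 756, 786 and 577 CPM (log2 value -1.73, edgeR adjusted p = 0.114).

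Marcksl1b stood at 655, 710 and 533 CPM in irf8 wells and at 193, 108 and 181 CPM in std wells, a log2 fold change of 1.92 (edgeR adjusted p = 0.114). In the member wells past the white blood cell limit its value was -0.14 (edgeR adjusted p = 0.949). ENSDARG00000004665 had a log2 fold change of 1.54 (edgeR adjusted p = 0.114).

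RUNX3 stood at 34.7, 44.0 and 9.04 CPM in irf8 member wells and at 166, 141 and 25.4 CPM in std member wells (log2 value -1.97, edgeR adjusted p = 0.252). Without plate 4, where edgeR called 342 genes, that adjusted p was 0.00085. Without plate 1 RUNX3 was not called, and without plate 2 edgeR called 0 genes. Cd83 stood at 84.4, 50.9 and 217 CPM in irf8 member wells and at 363, 349 and 97.9 CPM in std member wells. It went the other way on plate 4 (log2 value -1.44, edgeR adjusted p = 0.467). CCR9, whose level the rule touches, stood at 44.7, 104 and 27.1 CPM against 252, 404 and 79.8 CPM and is given without a test. CCR9 was found in 11 of 33 irf8 and 30 of 72 std member wells, and gata2b in 3 and 10. The 72 ribosomal protein genes tested all had values below 0, the median log2 value being -0.61 against 0.02 over all genes tested, and 0 of them were called. Of 13 white blood cell genes 11 were below 0, with a median of -0.67, and 25 of 28 G2 and mitosis genes were above 0, with a median of 0.51, again with 0 called. The calreticulin and endoplasmic reticulum chaperone list had 10 of 11 genes above 0 and a median of 0.99, and the muscle list, a marker list of another cell type, 9 of 9 and 0.84, with 0 called in either. Neutrophil-rich wells made up 4 of the 33 irf8 and 5 of the 72 std member wells, and without them 7 genes were called.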

How the data were processed

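Single runx1+23:mCherry cells were sorted into 384-well plates and sequenced by SORT-seq. Each table deposited by the authors holds estimated counts, that is, transcripts per gene and well from UMIs corrected for collisions (4096 UMIs) and not scaled for depth. BWA, Seurat and GRCz11 are named in the submitters' processing notes; versions, roles and annotation are not given in the sources used here. Inverting the correction gave whole UMIs for 100% of 1759418 values (tolerance 1e-06), which were used as counts. Spike-ins, 6.67% of UMIs of kept wells, were left out. The 5 tables use the same 384 well numbers, which are positions and not shared cells.

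Of 23628 gene IDs 18186 had a symbol, often in human style, so paralogs and overlapping genes may be uncertain; IKZF1 is ikzf1. Doublets were not called, and each well received 1 sorted cell. Member wells and other wells were summed per plate, rounded, and tested in R 4.3.3 by the quasi-likelihood method of edgeR 4.0.16 after filterByExpr and TMM scaling, Benjamini-Hochberg over all genes, with the plate as a block. The pairing comes from the labels, since both sums share a plate. Deviations of paired sums correlated by 0.29, 0.14 and 0.11 on plates 1, 2 and 4 (members against other globin-low wells), and on plate 2 by -0.17 between morpholinos and -0.12 between CCR9 wells and others. Standard errors are of log2 fold changes. Fits were tested on simulated data. Alternatives used DESeq2 1.42.0, other normalization, filters, thinning to 1000 UMIs, no block, other limits and leaving out plates.

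Named genes were the 5 of the rule, the 6 markers in the label, the 20 largest rises and 8 largest falls among called genes with the same direction on every plate and at least 50 CPM in the higher class, up to 4 called genes per list, up to 10 in each direction for CCR9 wells (carried over from the planned comparison of gata2b wells), and the 4 of smallest p between morpholinos. Others are named for a count and were chosen after their values were seen. The members, the 19 gene lists and the tests were chosen with earlier results of these data known.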

Additional observations from a re-analysis of the deposited data

How the results depend on the processing

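Leaving out 1 plate in turn gave 13 to 265 genes for members against other globin-low wells (587 with all), 0 to 1415 against all other kept wells (1596), 11 to 95 for CCR9 wells against other members (61) and 0 to 342 between morpholinos (0). Without a filter on low counts the 4 counts were 2241, 2730, 201 and 156, and after thinning to 1000 UMIs, with far fewer genes tested, 159, 592, 13 and 15. For members against other globin-low wells, a minimum of 3 transcripts on the 5 genes gave 1973, members past the white blood cell limit 1678, and all 5 plates 336. For CCR9 wells, at least 10 counts in every sum gave 31, no replicate block 26, leaving out the well with most UMIs of every sum 99, leaving out neutrophil-rich wells 120, and wells past the white blood cell limit 3. Between morpholinos DESeq2 called 11, the minimum of 10 counts 4 and leaving out neutrophil-rich wells 7. The cause was not tested. The block made 587 calls where no replicate block made 548. Apart from the CCR9 comparison the block moved no count by over 1.5 times.

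Of the 28 named genes against other globin-low wells, 321 of 373 alternative values kept direction and call and 52 lost the call, with 0 reversals. For the 21 of the CCR9 comparison these were 148, 40 and 0 of 188. Most of these genes were picked for the same direction on every plate, which bears on the reversals. Between morpholinos marcksl1b reversed to -0.14 in members past the white blood cell limit. The share of members, irf8 minus std, ran from -8.58 to -4.68 percentage points without 1 plate. It was -6.50 and -6.86 with a lower and a higher minimum of transcripts per well, and -3.60 with at least 1 transcript on the 5 genes. For members past the white blood cell limit it was -3.08, and -9.49 as a share of globin-low wells. After thinning it was -1.26, from means of 2.30% for std and 1.04% for irf8. The log2 fold change of member wells by edgeR, without thinning, was -1.13. Over globin-low wells the odds ratios were 6.97 (gata2b and ikzf1), 2.58 (gata2b and CCR9) and 7.07 (ikzf1 and CCR9). After thinning they were 0, 10.1 and 16.1, from 0, 1 and 4 shared wells, and within the members 1.90, 0.66 and 1.49. Gata2b wells against CCR9 wells was not run, with 2 plates, nor were its alternatives. Depth limits what is seen of il7r and gata2b, found after thinning in 2 and 3 member wells.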

Other observations

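Outliers among plates were looked for in 25 groups of 5 plate values, and 0 were found, where chance gives about 1 in 20. The rule looks for 1 plate far from the rest, so it cannot flag 2 plates that lie apart together. Plates 3 and 5 did so in the globin-low share of kept std wells, with 100% and 94.3%. Plates 1, 2 and 4 had 36.4%, 43.6% and 28.5%.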
